A study of Mus musculus with 2 samples.

Results

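The 37 genes of the mouse mitochondrial genome code for 13 mRNAs of the respiratory chain and ATP synthase, 2 rRNAs and 22 tRNAs. They were taken as every gene whose annotated name begins with mt-, together with every transcript model placed on the mitochondrial chromosome. Reads were found for 19 of the 37, of 18053 annotated genes with reads in the tissue. The material was adrenal gland of male B6CASTF1/J mice aged 4 days, a strain made by crossing C57BL/6J with CAST/EiJ mice, with no treatment or other condition. Total RNA of the gland was sequenced as long cDNA reads. All samples form 1 group, made of replicate 2 and replicate 1, which the labels call biological replicates with 1 technical replicate apiece. The labels do not settle whether they are different animals. Replicate 2 comes from tissue described as male 04 and replicate 1 from tissue described as male 03, yet the libraries are both described as male 03 and 1 donor identifier covers both.

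The mitochondrial genome is a small circle that cells inherit from the mother and carry in many copies. Both strands are copied into long precursors by a dedicated polymerase, and the tRNAs that lie between most of the larger genes are cut out to release the mRNAs and rRNAs. The mRNAs hold no introns, and most of them receive short poly(A) tails, which complete the stop codon of some. In the adrenal cortex, mitochondria also house enzymes of steroid synthesis, such as the side chain cleavage enzyme Cyp11a1, which draw on electrons from the same metabolism.

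The compact layout bears on how a read can be counted, so the sequences that make it ambiguous are shown here, from the GENCODE mouse release M21 transcripts on build mm10. Overlapping genes come first. mt-Atp8 and mt-Atp6, both of complex V, share 43 bases (chrM:7927-7969, plus strand), and mt-Nd4l and mt-Nd4, both of complex I, share 7 bases (chrM:10167-10173). Capitals mark the shared bases.
mt-Atp8/mt-Atp6: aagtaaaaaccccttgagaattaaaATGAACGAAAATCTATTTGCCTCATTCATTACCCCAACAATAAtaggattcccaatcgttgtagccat
mt-Nd4l/mt-Nd4: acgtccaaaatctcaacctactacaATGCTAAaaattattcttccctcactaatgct
The capitals of each begin with the start codon of the downstream gene and end with the stop codon of the upstream gene.

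Stop codons were read from annotated gene ends. The ends of mt-Nd1 and mt-Nd2 overlap the tRNA genes mt-Ti and mt-Tw. The last base of mt-Atp6, chrM:8607, is also the first base of mt-Co3. The mRNAs of mt-Nd1, mt-Nd2 and mt-Atp6 may therefore end otherwise once cut. Incomplete stop codons ended 3 of the 13 mRNA genes, those of mt-Co3, mt-Nd4 and mt-Cytb, while the other 10 ended in a complete one. In the last 31 bases of each (chrM:9360-9390, chrM:11514-11544 and chrM:15258-15288, plus strand) the capital marks the single T left after the last whole triplet.
mt-Co3 end: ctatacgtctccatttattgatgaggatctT
mt-Nd4 end: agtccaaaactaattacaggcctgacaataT
mt-Cytb end: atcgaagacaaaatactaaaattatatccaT

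A stretch of nuclear chromosome 1 holds copies of 7 mitochondrial genes, annotated as unprocessed pseudogenes. Of the 7, 5 matched their gene without a mismatch over the aligned length, and the other 2 differed at 1 base each. Positions count from the first base of the mitochondrial gene: the copy of mt-Co1, Gm29216, carries A1066T, and the copy of mt-Nd3, Gm28438, carries T3C. Capitals mark that base in the 29 bases of mt-Co1 (chrM:6390-6418, plus strand) and of its copy (chr1:24616160-24616188, minus strand), and in the 28 bases of mt-Nd3 (chrM:9459-9486, plus strand) and of its copy (chr1:24613092-24613119, minus strand).
mt-Co1: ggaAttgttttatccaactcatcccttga
Gm29216: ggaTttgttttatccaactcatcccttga
mt-Nd3: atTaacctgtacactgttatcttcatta
Gm28438: atCaacctgtacactgttatcttcatta
Within these aligned stretches of build mm10, those capital bases are the only ones that tell gene and copy apart. The sequences of these mice, a cross with CAST/EiJ, were not examined.

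Replicate 2 held 810645 mouse reads and replicate 1 held 688260, after 21907 and 19466 reads on spike-in contigs were set aside. Levels are given in CPM, the reads of a gene or model divided by the library's mouse reads and put on a common scale, on which 1 read equals 1.23 CPM in replicate 2 and, in replicate 1, 1.45 CPM. A gene with 0 reads may hold up to 3, which equal 3.70 and 4.36 CPM. Such limits and all intervals cover counting error only. The reads carry no molecular identifiers, so repeated copies of 1 cDNA cannot be set apart, and the intervals do not allow for them. In bulk tissue, fewer cells of a type and less RNA per cell cannot be told apart.

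Mitochondrial transcripts took a small share of the reads. All models of the mitochondrial chromosome held 795 reads in replicate 2 and 392 in replicate 1, or 0.0981% (95% Wilson interval 0.0915 to 0.105) and 0.0570% (0.0516 to 0.0629) of the mouse reads. That is 981 and 570 CPM, with a mean of 775 ± 291 CPM (SD, n = 2). The mRNAs held 730 and 366 of these reads, the rRNAs 26 and 8, the tRNAs 12 and 3, and models that match no annotated gene 27 and 15. Thus 91.8% of the mitochondrial reads of replicate 2 and 93.4% of those of replicate 1 were assigned to mRNAs.

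Complex IV, cytochrome c oxidase, held more than 50 of every 100 mitochondrial reads, at 52.6% in replicate 2 and 53.1% in replicate 1. Its catalytic subunit gene mt-Co1 (ENSMUSG00000064351.1, chrM:5328-6872) had 375 and 180 reads, or 463 and 262 CPM, and was the highest of all members in both libraries. Among all annotated genes with reads its mean of 362 ± 142 CPM ranked 426. The other catalytic core subunit gene, mt-Co2, which receives electrons from cytochrome c (chrM:7013-7696), had 22 and 9 reads, or 27.1 and 13.1 CPM. mt-Co3, the third core subunit gene (chrM:8607-9390), had 21 and 19 reads, or 25.9 and 27.6 CPM. Both therefore lay far under mt-Co1 in each library.

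Complex III, the cytochrome bc1 complex, has a single mitochondrial gene, mt-Cytb, which codes for cytochrome b (ENSMUSG00000064370.1, chrM:14145-15288). It had 140 reads in replicate 2 and 59 in replicate 1, or 173 and 85.7 CPM, the second highest level in both libraries. Its mean was 129 ± 61.5 CPM (SD, n = 2).

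Complex I, NADH dehydrogenase, draws 7 subunits from the mitochondrial genome, and their levels spread widely. mt-Nd1 (chrM:2751-3707), whose product lies near the site where quinone binds, led with 64 and 30 reads, or 78.9 and 43.6 CPM. mt-Nd2 (chrM:3914-4951), a membrane arm subunit gene, followed with 35 and 29 reads, or 43.2 and 42.1 CPM. mt-Nd1 was the higher of the pair in both libraries, though by only 1 read in replicate 1.

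The other membrane arm subunit genes were lower still. mt-Nd5 (chrM:11742-13565), the longest mitochondrial mRNA gene at 1824 bases, had 15 and 12 reads, or 18.5 and 17.4 CPM, and mt-Nd4 (chrM:10167-11544) had 18 and 8 reads, or 22.2 and 11.6 CPM. mt-Nd3 (chrM:9459-9806) had 2 reads in each library. mt-Nd4l (chrM:9877-10173) had 1 read in replicate 2 and 0 in replicate 1. mt-Nd6 (chrM:13552-14070), the only mRNA gene on the minus strand, had 0 reads in replicate 2 and in replicate 1. That leaves room for up to 3.70 and 4.36 CPM.

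Complex V, the ATP synthase, is represented by mt-Atp6 and mt-Atp8, which code for parts of its membrane-bound proton channel. mt-Atp6 (chrM:7927-8607) had 37 and 17 reads, or 45.6 and 24.7 CPM. mt-Atp8 (chrM:7766-7969) had 0 reads in replicate 2 and 1 in replicate 1. In mammals mt-Atp8 with mt-Atp6, and mt-Nd4l with mt-Nd4, are known to be made as joint mRNAs. The counts of mt-Atp8 and mt-Nd4l, and of their partners, are uncertain for that reason, and the split of reads within a pair was not tested.

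**Figure D1:**
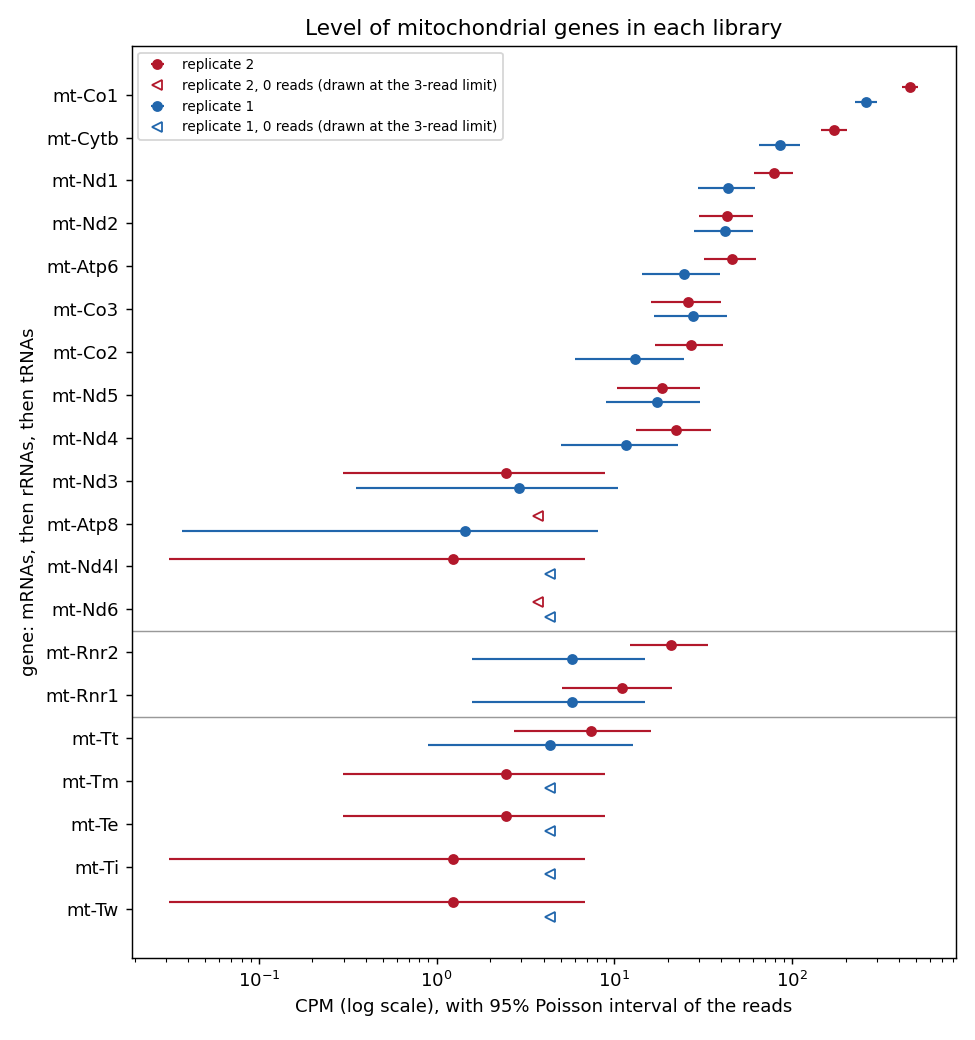
CPM on a log axis of each mitochondrial gene with reads, and of mt-Nd6, in replicate 2 (red) and replicate 1 (blue), with 95% Poisson intervals of the reads; open triangles mark 0 reads, drawn at the level of 3 reads. mt-Co1 stands at 463 and 262 CPM, and the mRNAs from mt-Nd2 down to mt-Nd4 have overlapping ranges.

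Ordered by mean CPM, the mRNAs ran mt-Co1, mt-Cytb, mt-Nd1, mt-Nd2, mt-Atp6, mt-Co3, mt-Co2, mt-Nd5, mt-Nd4, mt-Nd3, mt-Atp8, mt-Nd4l and mt-Nd6. The ranges over the libraries did not overlap between mt-Co1 and mt-Cytb, mt-Cytb and mt-Nd1, mt-Nd1 and mt-Nd2, or mt-Nd4 and mt-Nd3. Below mt-Nd4 the counts are too low to set an order, since the 0 reads of mt-Atp8 in replicate 2 allow up to 3.70 CPM and mt-Nd3 had 2.47 CPM there. Each step from mt-Nd2 to mt-Nd4 lay within the spread between the libraries. A long read stands for 1 cDNA, so CPM is not divided by length, but the order was also taken per kb of annotated gene. On the per kb scale mt-Co1 averaged 234, mt-Cytb 113, mt-Nd1 64.0, mt-Atp6 51.6 and mt-Nd2 41.1 CPM per kb, so that mt-Atp6 passed mt-Nd2 while the same 5 genes led. At the other end mt-Nd5 had 9.85 and mt-Nd3 7.72 CPM per kb. Across the 13 mRNAs, Spearman's rho was 0.94 between the CPM of the libraries and 0.64 between mean CPM and gene length, given as descriptions over genes that share both libraries.

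The rRNAs were not abundant in these reads. mt-Rnr1, the 12S rRNA gene of the small ribosomal subunit (chrM:70-1024), had 9 and 4 reads, or 11.1 and 5.81 CPM. mt-Rnr2, the 16S rRNA gene of the large subunit (chrM:1094-2675), had 17 and 4 reads, or 20.97 and 5.81 CPM. Summed, they made up 3.27% of the mitochondrial reads in replicate 2 (95% Wilson interval 2.24 to 4.75) and 2.04% in replicate 1 (1.04 to 3.97).

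Reads of tRNA genes were rare, and 17 of the 22 had 0 reads in both libraries. Only mt-Tt, the threonine tRNA gene that begins on the base after the end of mt-Cytb (chrM:15289-15355, plus strand), had reads in both, with 6 in replicate 2 and 3 in replicate 1. Another 4 tRNA genes had reads in replicate 2 alone: mt-Tm and mt-Te with 2 each, and mt-Ti and mt-Tw with 1 each. Of these, mt-Te, the glutamate tRNA gene (chrM:14071-14139), lies on the minus strand beside mt-Nd6, and its 2 reads were the only ones of an annotated minus strand gene. The sequences of mt-Tt and mt-Te are given because they border the unannotated models described next.
mt-Tt: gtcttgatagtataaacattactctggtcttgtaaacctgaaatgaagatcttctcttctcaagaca
mt-Te: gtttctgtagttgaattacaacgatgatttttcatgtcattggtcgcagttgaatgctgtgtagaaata
Counts this low do not separate the tRNAs from one another.

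Nearly all reads were assigned to annotated genes as known models of 1 exon. Known models held 96.6% of the mitochondrial reads in replicate 2 and 96.2% in replicate 1, against 70.1% and 74.2% of all other mouse reads (Fisher's exact test, two-sided, adjusted after Benjamini and Hochberg over 7 classes in both libraries, adjusted p = 6.71e-82 and 6.92e-31). Antisense models took 3.40% and 3.83% of the mitochondrial reads, against 4.23% and 2.94% of the others (adjusted p = 0.292 in both). No mitochondrial read fell in the incomplete splice match (ISM), new combination (NIC), new splice site (NNC), genomic or intergenic classes, and no model had more than 1 exon. A count of 0 allows up to 0.377% of the mitochondrial reads in replicate 2 and 0.765% in replicate 1. Genes without introns cannot enter most of the splice classes. Among the other mouse reads, those of models with 1 exon were known in 22.8% of cases in replicate 2 and in 29.6% in replicate 1.

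**Figure D2:**
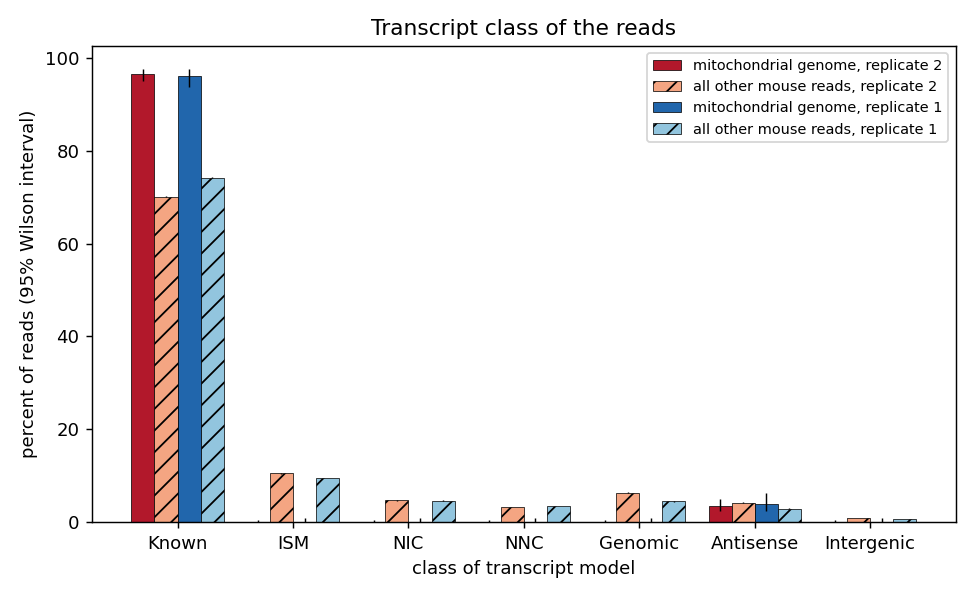
Percent of reads in each class of transcript model for the mitochondrial genome (plain bars) and all other mouse reads (hatched bars), in replicate 2 (red) and replicate 1 (blue), with 95% Wilson intervals. Known models hold 96.6% and 96.2% of the mitochondrial reads and the only other class with reads is antisense, at 3.40% and 3.83%.

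Every known model carried the start and end of its annotated gene, 18 of 18 in replicate 2 and 14 of 14 in replicate 1. A deposited model stands for all the reads assigned to it, so these are ends of models, and how far single reads reached was not measured. Models that match no annotated gene numbered 8 in replicate 2 and 7 in replicate 1. Of their 30 ends, 23 lay on an annotated gene boundary.

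The unannotated reads fell mainly on the plus strand, in 3 stretches seen in both libraries. The first lay between mt-Tw and mt-Co1, opposite 4 tRNA genes (chrM:5016-5326 in replicate 2 and chrM:5018-5326 in replicate 1), with 10 and 2 reads. The second ran from the end of mt-Nd5 to the start of mt-Cytb, opposite mt-Nd6 and mt-Te (chrM:13565-14145 in both libraries), with 6 and 5 reads. The third began directly after mt-Tt and lay opposite mt-Tp, the proline tRNA gene (chrM:15356-16043 in replicate 2 and chrM:15356-16093 in replicate 1), with 4 and 2 reads.

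The first and second of these stretches lie between plus strand genes, and the third runs into the noncoding control region. Unannotated models on the minus strand held 7 reads in replicate 2 and 6 in replicate 1, and none had the same ends in both libraries. In replicate 2, 4 of the 7 belonged to models listed with lengths of 7 and 1 bases, which is shorter than any annotated mitochondrial gene. In replicate 1 the longest lay opposite the whole of mt-Rnr2, with 1 read. Altogether 98.9% of the mitochondrial reads of replicate 2 and 98.5% of those of replicate 1 were on the plus strand, which holds 28 of the 37 genes. The minus strand, with mt-Nd6 and 8 tRNA genes, held 9 reads (1.13%, 95% Wilson interval 0.597 to 2.14) and 6 reads (1.53%, 0.703 to 3.30).

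An uncut precursor holds neighbouring genes of 1 strand, so models were checked for such cover. With a gene counted as covered at 50% of its length, no model covered 2 or more genes of its own strand. For reads assigned to such models, this allows up to 0.377% of the mitochondrial reads in replicate 2 and 0.765% in replicate 1. It sets no limit on uncut precursors. Every known model ends where its annotated gene does, so a read running across 2 genes may have been assigned to 1 of them. Counting genes of either strand, models covering 2 or more held 17 reads (2.14%) in replicate 2 and 11 reads (2.81%) in replicate 1, all of them unannotated models opposite the genes they cover. When a single shared base was enough, the counts were 589 and 308 reads, because annotated neighbours overlap at their ends.

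Reads of the chromosome 1 copies show how uncertain the counts of some members are. The 7 copies lie side by side on the minus strand between positions 24611535 and 24616197 of chromosome 1 and held 128 reads in replicate 2 and 65 in replicate 1, or 158 and 94.4 CPM. Per 100 reads of the mitochondrial genome that is 16.1 and 16.6. On build mm10, the copies of mt-Co2, mt-Atp6 and mt-Co3 are identical to them over nearly their whole length. These 3 genes shared their reads with the copy about evenly. mt-Co2 had 22 and 9 reads and its copy Gm28661 had 22 and 10, so that mt-Co2 held 49.2% of the 2 libraries' pooled reads (95% Clopper-Pearson interval 36.4 to 62.1). mt-Atp6 had 37 and 17 reads and its copy Gm10925 had 32 and 17, with 52.4% on mt-Atp6 (42.4 to 62.4). mt-Co3 had 21 and 19 reads and its copy Gm28437 had 25 and 16, with 49.4% on mt-Co3 (38.1 to 60.7).

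For the other 4 genes most reads, or too few to tell, stood on the mitochondrial gene. The copy of mt-Co1, Gm29216, matches the last 483 bases of the gene and held 47 and 21 reads, against 375 and 180 on mt-Co1, which had 89.1% of the pooled reads (86.4 to 91.4). The copy of mt-Nd4, Gm28439, matches its first 876 bases and held 0 and 1 reads. The copies of mt-Nd3 and mt-Nd4l, Gm28438 and Gm10222, each held 1 read in replicate 2 and 0 in replicate 1. mt-Cytb, mt-Nd1 and mt-Nd2 have no copy in that stretch. A search of all annotated transcripts found 10 further genes with 100 or more aligned bases at 90% identity or above, which held 0 reads in replicate 2 and 1 in replicate 1.

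Which locus made the reads of identical stretches cannot be told apart from these files. With the copies added, mt-Atp6 would stand at 85.1 and 49.4 CPM, above mt-Nd1 at 78.9 and 43.6 CPM, and mt-Co3 at 56.7 and 50.9 CPM. The whole set would average 901 ± 336 CPM in place of 775 ± 291 CPM (SD, n = 2).

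**Figure D3:**
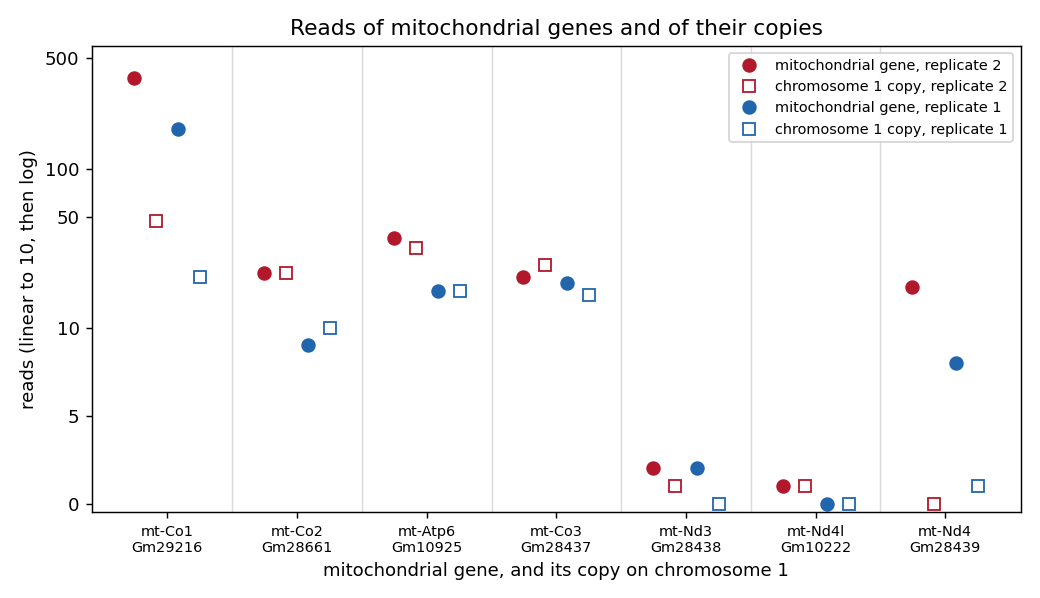
Reads of 7 mitochondrial genes (filled circles) and of their chromosome 1 copies (open squares) in replicate 2 (red) and replicate 1 (blue), on an axis that is linear to 10 and logarithmic above. For mt-Co2, mt-Atp6 and mt-Co3 the circles and squares lie together, while mt-Co1 has 375 and 180 reads against 47 and 21 on its copy.

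Between the libraries, the mitochondrial genome had a higher share of the reads in replicate 2. Its summed level was 1.72 times that of replicate 1 (95% Clopper-Pearson interval 1.52 to 1.95, log2 ratio 0.78), and Fisher's exact test (two-sided, mitochondrial against other mouse reads) gave p = 1.84e-19. Without mt-Co1 the ratio was 1.68 (1.42 to 1.99), and the copies on chromosome 1 had 1.67 (1.23 to 2.29). Such a test sets 1 library against 1 other, so it says nothing of animals and has no replicate check. The summed ratio is set against a median log2 ratio of -0.10 over the 8276 annotated genes whose reads summed to 20 or more, which TMM scaling moves to 0.00.

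Gene by gene, a call needed an adjusted p under 0.05 (Fisher's exact test, Benjamini-Hochberg over the 8276 genes) and a log2 ratio, with 0.5 CPM added, no smaller than 1 in either direction. Of the 10 members with at least 20 reads, 1 was called higher in replicate 2 and 0 lower, against 3.23% of all tested genes called, 2.26% higher. Calls over all genes were 187 higher and 80 lower, and 211 higher and 47 lower with TMM scaling. mt-Cytb was the called member, at 173 CPM in replicate 2 against 85.7 CPM in replicate 1 (log2 ratio 1.01, counting SE 0.22, adjusted p = 0.000114), which is just past the threshold of size. mt-Co1 was past the adjusted p but not the size (log2 ratio 0.82, counting SE 0.13, adjusted p = 8.8e-09), so that 2 of the 10 members passed the adjusted p, against 7.93% of all tested genes.

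The remaining 8 tested members did not pass. mt-Rnr2 had the largest log2 ratio of the 10, 1.77, from 17 against 4 reads, with an adjusted p of 0.125 by Fisher's exact test. mt-Nd1 had a log2 ratio of 0.85 (Fisher's exact test, adjusted p = 0.0735), and passed the adjusted p, not the size, with TMM scaling (0.0384), DESeq2's size factors (0.0382) and known models alone (0.0354), which makes 3 of the 10 members. mt-Co2, mt-Nd4 and mt-Atp6 had log2 ratios of 1.03, 0.91 and 0.87. Another 3 members had ratios near 0: mt-Nd5 at 0.08, mt-Nd2 at 0.03 and mt-Co3 at -0.09, with 15, 35 and 21 reads in replicate 2 and 12, 29 and 19 in replicate 1. Their 95% intervals reached 2.48, 1.74 and 1.85 times, so a ratio like that of the sum lies within them. Over the 10 tested members the median log2 ratio was 0.86. By complex, the sums were 1.42 times higher in replicate 2 for complex I (1.07 to 1.89), 2.01 for complex III (1.48 to 2.78), 1.71 for complex IV (1.44 to 2.02) and 1.75 for complex V (0.969 to 3.26).

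**Figure D4:**
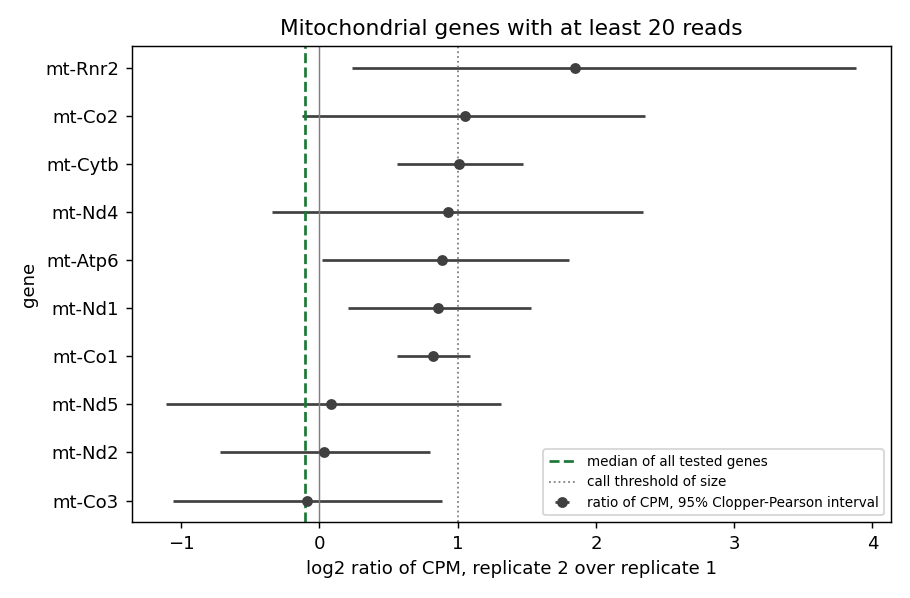
Log2 ratio of CPM, replicate 2 over replicate 1 and with no CPM added, for the 10 mitochondrial genes with at least 20 reads, with 95% Clopper-Pearson intervals, beside the median of all tested genes (dashed) and the threshold of size (dotted). mt-Cytb, mt-Co1, mt-Nd1, mt-Atp6 and mt-Rnr2 have intervals above 0, and mt-Nd5, mt-Nd2 and mt-Co3 are centred near it.

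Markers of several tissues differed between the same libraries, and their part in the mitochondrial difference was not tested. Of 10 liver markers, 9 were tested and all 9 were called higher in replicate 2. Over all tested genes, 3.23% were called, 2.26% higher. The 10 liver markers summed to 19852 CPM in replicate 2 against 504 CPM in replicate 1. The transferrin gene Trf had 5808 and 227 CPM and the fetuin gene Ahsg 3778 and 59.6 CPM, while Apob had 1 read in replicate 2 and 0 in replicate 1. The 8 skeletal muscle markers summed to 2755 and 1536 CPM, with 2 of 6 tested called higher. By adjusted p alone (Fisher's exact test), 4 of the 6 were higher and 0 lower, against 7.93% of all tested genes in either direction. The called genes code for myosin light chains, Mylpf at 447 and 183 CPM and Myl1 at 319 and 147 CPM. The most abundant, the actin gene Acta1 at 1394 and 859 CPM and the creatine kinase gene Ckm at 500 and 309 CPM, were not called. Both passed the adjusted p but not the size. Actc1 had 9 reads and 0. The 8 brown fat markers summed to 2845 and 2140 CPM with 0 of 7 called and none at 0. Of the 7, 4 passed the adjusted p, all higher in replicate 2, against 7.93% of all tested genes in either direction. The lipid carrier gene Fabp4 was highest at 1242 and 943 CPM, and the uncoupling protein gene Ucp1 had 395 and 231 CPM. Plin1 lay the other way, at 226 and 266 CPM, and did not pass the adjusted p.

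The gland's own markers lay the other way. The 8 adrenal cortex markers had sums of 31598 CPM in replicate 2 against 46618 CPM in replicate 1. Of the 8, 1 was called lower, against 3.23% of all tested genes called in either direction. It was the aldosterone synthase gene Cyp11b2, at 318 and 748 CPM. By adjusted p alone (Fisher's exact test), 6 of the 8 were lower and 0 higher, against 7.93% of all tested genes in either direction. The 2 most abundant were not called. The steroid 21-hydroxylase gene Cyp21a1, at 9698 and 18263 CPM, passed the adjusted p but not the size (log2 ratio -0.91). Cyp11a1, at 11398 and 11667 CPM, passed neither (log2 ratio -0.03). The 8 medulla markers summed to 9357 and 12583 CPM with 0 called, led by the secretory granule genes Chga at 3417 and 4819 CPM and Chgb at 2936 and 3824 CPM. Of these 8, 4 passed the adjusted p, all lower in replicate 2, against 7.93% of all tested genes in either direction. All 16 had reads in both libraries.

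Nuclear partners of the mitochondrial subunits were far more abundant in these reads. The 73 listed nuclear subunit genes of complexes I, III, IV and V had sums of 43004 CPM in replicate 2 against 37259 CPM in replicate 1. For each 100 CPM of them, the 13 mitochondrial mRNAs had 2.09 and 1.43 CPM. The chromosome 1 copies, at 158 and 94.4 CPM, are left out of these sums. Whether mitochondrial and nuclear mRNAs were recovered as reads equally well was not tested, so these are shares of reads and not of the tissue's RNA. Of the 36 nuclear complex I genes all lay above mt-Nd1 in CPM in both libraries, and 34 did so per kb, with CPM divided by the read-weighted mean length of a gene's models. All 9 of complex III lay above mt-Cytb and all 17 of complex V above mt-Atp6 on both scales. For complex IV, 9 of 11 lay above mt-Co1 in CPM in both libraries and 11 of 11 per kb. Per kb, the medians of the nuclear genes were 389 for complex I, 750 for complex III, 1275 for complex IV and 760 for complex V, and the highest mitochondrial genes of these complexes had 64.0, 113, 234 and 51.6 CPM per kb.

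**Figure D5:**
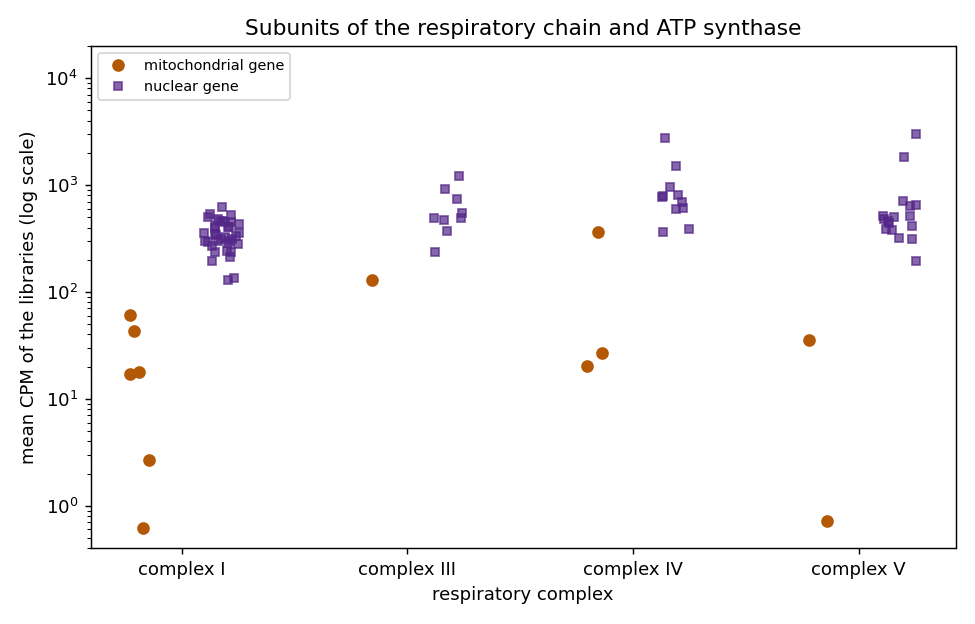
Mean CPM on a log axis of the mitochondrial genes (orange circles) and the listed nuclear genes (purple squares) of each respiratory complex and of ATP synthase; mt-Nd6, with 0 reads, is not drawn. mt-Co1 at 362 CPM is the only mitochondrial gene near the range of its nuclear partners.

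Leading members of the nuclear lists were Ndufs7, an iron-sulphur subunit gene of complex I, at 678 and 570 CPM, and Uqcrc1, a core subunit gene of complex III, at 1137 and 1309 CPM. Cox4i1, which codes for a regulatory subunit of complex IV, had 2982 and 2567 CPM, and Atp5b, the catalytic beta subunit gene of ATP synthase, had 3040 and 3021 CPM. None of the 73 was called between the libraries, against 3.23% of all tested genes. By adjusted p alone (Fisher's exact test), 27 were higher in replicate 2 and 2 lower, against 7.93% of all tested genes in either direction. Their median log2 ratio was 0.27, against 0.86 for the 10 tested mitochondrial genes and -0.10 for all tested genes. Whether the mitochondrial and nuclear subunits differ in this ratio was not tested.

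Nuclear genes that transcribe, process and maintain the mitochondrial genome were called about as rarely as other genes. All 45 listed had reads and 36 were tested, with 0 called higher and 1 called lower, against 3.23% of all tested genes, and their median log2 ratio was -0.18, against -0.10 for all. The called gene was Mgme1, a nuclease of mitochondrial DNA maintenance, with 28 reads (34.5 CPM) in replicate 2 and 50 reads (72.6 CPM) in replicate 1 (log2 ratio -1.06, Fisher's exact test, adjusted p = 0.0224). The most abundant were Ssbp1, the single-stranded DNA binding protein of the mitochondrial replication fork, at 487 and 400 CPM, and Fastk, founder of a family of mitochondrial RNA binding proteins, at 225 and 248 CPM. Hsd17b10, a subunit of the enzyme that cuts the 5′ ends of the tRNAs, had 204 and 179 CPM, and Slirp, which stabilises mitochondrial mRNAs with Lrpprc, had 205 and 169 CPM. None of these 4 most abundant genes passed the test.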

How the data were processed

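Per the file headers, the authors deposited raw counts of long reads per TALON transcript model, 1 file per library, with model coordinates in annotation files on mm10 and GENCODE M21. The aligner is not given in the sources used here, nor are filters. Counts were summed per gene, and CPM used all reads on mouse chromosomes. With 1 group of 2 libraries, no group contrast was possible. Each p-value between libraries sets 1 library against 1 other and covers counting error only. It measures neither technical nor biological spread, and the labels leave unclear whether the animals differ. Libraries were compared with two-sided Fisher's exact tests (SciPy 1.17.1, statsmodels 0.14.6). These were checked on simulated libraries that held set folds and counting error alone, so the check covers no other difference between libraries. Copies were searched with blastn (BLAST 2.17.0). Alternatives used edgeR 4.0.16 (TMM) and DESeq2 1.42.0 size factors, other read minimums, other added CPM, and fewer model classes.

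Members, lists and tests were chosen with earlier results of these data known. Named were every member and copy with reads, the 4 most abundant and every called gene of the RNA machinery list, the most abundant and every called gene of each nuclear list, and the 2 most abundant markers of each tissue. Apob, Actc1, Plin1, the called markers Mylpf, Myl1 and Cyp11b2, and the tRNAs opposite unannotated models were outside that rule and named after their values were seen. Of the copies listed beforehand, 3 lie on chromosome Y with 0 reads and were left out. The list symbols Prorp, Atp5pb and Atp5md were matched to the files' older symbols through RefSeq synonyms. Atp5o stands for the more abundant of its gene identifiers.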

Additional observations from a re-analysis of the deposited data

How the results depend on the processing

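The summed log2 ratio stayed positive, from 0.75 to 0.89, with an unadjusted p under 0.05 by Fisher's exact test, under TMM and DESeq2 scaling, without genomic models, with known models alone and, chosen after seeing the data, with the copies added or without mt-Co1. mt-Cytb was the 1 member called under each of the 9 alternatives to the gene comparison, and no other tested member was called under them; mt-Nd1 passed the adjusted p alone under 3 of them. Calls over all genes numbered 161 with at least 50 reads, against 267, with 5250 genes tested. Models covering 2 or more genes held a mean of 2.47% of the reads and 76.3% at any overlap. Leaving out a library in turn gave 570 to 981 CPM for the whole set, 94.4 to 158 CPM for the copies, 2.14% to 2.81% for spans, 3.40% to 3.83% for unannotated models, 1.13% to 1.53% for the minus strand, and 4 to 5 of the same 5 leading mRNAs. No paired analysis was possible because there is only 1 group. With 392 reads in replicate 1, single tRNAs and small mRNAs are near the limit of detection.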
